A study of Mus musculus with 36 samples.

Results

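The eosinophil-associated ribonucleases Ear1, Ear2, Ear6 and Ear10 were followed through 36 RNA-seq libraries of alveolar macrophages (AΦ) and monocytes sorted from mouse lung. They were chosen by gene symbol, and all 4 were found once among the 27562 genes of the expression table. The libraries fall into 12 groups of 3. They come from mice exposed in chambers to filtered air (FA) or to concentrated fine particles (PM2.5) for 4-weeks or 32-weeks. By the study's methods 3 mice per exposure and time point were taken for sequencing and all populations were sorted from lungs of such mice, so AΦ and monocytes, and CD45.1 and CD45.2 cells, of 1 exposure and time point are not from separate animals. Which libraries share a mouse is not given in the sources used here. The mice were males of the CD45.2 type (C57BL/6 in the labels, C57BL/6J in the methods), irradiated with a shield over the chest, given busulfan and then bone marrow of CD45.1 donors (B6.SJL-Ptprca Pepcb/BoyJ), and this holds for the FA mice as well. Tissue-resident TR-AΦ are the CD45.2 AΦ of the shielded lung, sampled at both time points, and bone marrow-derived BM-AΦ are CD45.1 AΦ of donor marrow, sampled at 32-weeks. Monocytes of 4-weeks are CD45.2 cells. Monocytes of 32-weeks carry the numbers 1 and 2 in the labels, and the key for AΦ, 1 for donor (CD45.1) and 2 for recipient (CD45.2), was applied to them, so that their origin rests on that reading. AΦ were sorted as CD64 positive cells high in CD11c and low in CD11b, and monocytes as CD11b high cells low in CD64 without Ly6G or MHC II.

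The Ear genes belong to the RNase A superfamily, whose members are small secreted enzymes that cut RNA. The rodent Ear genes multiplied by gene duplication, and the family takes its name from the ribonucleases stored in eosinophil granules. Mouse AΦ are known to transcribe Ear1 and Ear2 as well, so the name of the family does not mark the cell that makes the transcript. The substrates of the individual Ear proteins in the lung are not well known.

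All 4 genes lie on chromosome 14 of GRCm38 (mm10) in the GENCODE M21 annotation. Ear1 (ENSMUSG00000072601.4) spans chr14:43818765-43875517 on the minus strand, a span that takes in the pseudogenes Ear-ps9 and Ear-ps12. Ear10 (ENSMUSG00000090166.2) spans chr14:43922720-43923559 on the minus strand. Ear2 (ENSMUSG00000072596.4) spans chr14:44102654-44103534 on the plus strand, and Ear6 (ENSMUSG00000062148.6) lies farther along at chr14:51853699-51854643 on the plus strand. Each main transcript has 2 exons, and the whole coding sequence is in exon 2.

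The beginning of the coding sequence shows how alike the members are, which bears on how far their FPKM can be told apart. Below are the first 120 coding bases of each gene, taken from the GENCODE transcripts of GRCm38. Capitals mark bases that differ from Ear2 in a pairwise alignment. The stretches are chr14:44102887-44103006 plus strand for Ear2, chr14:43819290-43819409 minus strand for Ear1, chr14:43923249-43923368 minus strand for Ear10 and chr14:51853998-51854117 plus strand for Ear6.
Ear2: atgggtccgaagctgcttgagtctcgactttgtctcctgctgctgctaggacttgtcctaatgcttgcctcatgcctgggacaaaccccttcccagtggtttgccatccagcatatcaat
Ear1: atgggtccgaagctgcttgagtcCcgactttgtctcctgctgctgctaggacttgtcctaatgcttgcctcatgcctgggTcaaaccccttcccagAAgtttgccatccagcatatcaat
Ear10: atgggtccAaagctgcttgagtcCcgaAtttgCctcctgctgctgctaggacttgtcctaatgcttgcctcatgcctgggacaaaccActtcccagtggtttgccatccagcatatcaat
Ear6: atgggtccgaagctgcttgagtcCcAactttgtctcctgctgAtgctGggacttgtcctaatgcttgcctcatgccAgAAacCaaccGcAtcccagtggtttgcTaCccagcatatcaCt

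Over the whole coding sequence Ear1 and Ear2 differed at 20 of 465 aligned bases, an identity of 95.7%. Ear2 and Ear10 differed at 14 of 468 bases (97.0%), and Ear1 and Ear10 at 23 of 465 bases (95.1%). Ear6 stood farther off, with 55 differences from Ear2 and 59 from Ear1. Cut into all stretches of 50 bases, 42.6% of the Ear1 transcript occurred in the transcripts of no other annotated gene. The share was 58.5% for Ear2, 60.1% for Ear10 and 98.6% for Ear6. Ear1 shared 41.4% of its stretches with the transcribed pseudogene Ear-ps9 and 23.8% with Ear2, and Ear10 shared 27.7% with Ear2. How the authors assigned reads that fit several genes is not given in the sources used here. The levels of Ear1, Ear2 and Ear10 are therefore uncertain to the extent that such reads were split among them, and the few FPKM of Ear10, beside a far more abundant Ear2, are the most exposed to this.

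The promoters were as alike as the transcripts, although the expression of the genes was not. Below are 300 bases from 250 before to 50 after the transcription start, from RefSeq on GRCm38.p6, where all 4 members were matched by symbol. The windows are chr14:44102404-44102703 plus strand for Ear2, chr14:43819590-43819889 minus strand for Ear1, chr14:43923547-43923846 minus strand for Ear10 and chr14:51853518-51853817 plus strand for Ear6. Capitals mark bases that differ from Ear2 or have no partner in the alignment with it.
Ear2: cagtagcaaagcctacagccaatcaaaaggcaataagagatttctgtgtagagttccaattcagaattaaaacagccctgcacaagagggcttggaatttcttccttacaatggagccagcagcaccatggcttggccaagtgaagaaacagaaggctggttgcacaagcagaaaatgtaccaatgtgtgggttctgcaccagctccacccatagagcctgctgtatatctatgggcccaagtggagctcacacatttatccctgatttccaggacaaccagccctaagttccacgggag
Ear1: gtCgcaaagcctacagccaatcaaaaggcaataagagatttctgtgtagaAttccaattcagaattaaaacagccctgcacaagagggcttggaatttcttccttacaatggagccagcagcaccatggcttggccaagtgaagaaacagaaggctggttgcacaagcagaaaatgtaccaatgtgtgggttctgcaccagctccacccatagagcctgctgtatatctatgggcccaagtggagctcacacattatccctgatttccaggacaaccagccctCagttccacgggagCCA
Ear10: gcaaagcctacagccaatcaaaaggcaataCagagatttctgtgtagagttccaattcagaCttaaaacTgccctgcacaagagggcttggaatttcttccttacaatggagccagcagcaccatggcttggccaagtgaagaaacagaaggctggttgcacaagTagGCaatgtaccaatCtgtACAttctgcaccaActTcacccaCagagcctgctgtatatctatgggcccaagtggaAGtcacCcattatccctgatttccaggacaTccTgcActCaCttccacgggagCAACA
Ear6: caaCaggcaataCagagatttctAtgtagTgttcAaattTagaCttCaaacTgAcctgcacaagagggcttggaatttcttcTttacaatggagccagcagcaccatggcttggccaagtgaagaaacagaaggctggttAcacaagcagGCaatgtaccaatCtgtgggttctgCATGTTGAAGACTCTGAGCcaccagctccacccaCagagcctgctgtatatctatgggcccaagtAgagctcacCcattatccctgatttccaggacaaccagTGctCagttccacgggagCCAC

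The Ear1 window differed from that of Ear2 at 3 of 297 aligned bases (99.0% identity). Ear10 differed at 20 of 294 bases (93.2%) and Ear6 at 20 of 276 bases (92.8%). Of 5 short motifs searched on both strands, 4 occurred in none of the windows. The PU.1 motif GAGGAAGT is found in 3.2% of the 32851 RefSeq promoters and the C/EBP motif TTGCGCAA in 0.183%. The promoter box TATAAA is found in 13.6% of them. The AP-1 motif TGACTCA is found in 5.2%. AGGTCA, the half-site of many nuclear receptors, occurred in the Ear6 window and not in those of Ear1, Ear2 or Ear10, and it is in 16.3% of all promoters. A match or its absence describes these letters in this window only.

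Expression was measured in FPKM, the fragments of a transcript scaled by its length and by the depth of the library. Over all genes the FPKM added up to 1839577 in the lowest library and 3339020 in the highest. Differences are given on the scale of log2(FPKM + 1), which understates changes of genes with low values, and were tested with limma across the genes whose mean reached 1 FPKM. The SE and p of limma rest on the spread between the 3 libraries of a group, pooled over all groups in the fit and moderated across genes. A fit held the 18 AΦ libraries, the 18 monocyte libraries or, between cell types, all 36. Libraries outside a comparison therefore bear on its error. Libraries were taken as independent, also where AΦ and monocytes, or cells of both origins, are not from separate animals. An adjusted p is from limma with Benjamini-Hochberg adjustment within a comparison, and the threshold was 0.05. No counts were analysed here, so the depth behind each value is unknown, and a value of exactly 0 is described as listed at 0. In bulk libraries a lower level can come from fewer cells of a type or from less RNA per cell, and these cannot be told apart. The cell type labels were checked against markers. The 13 AΦ markers, Siglecf among them, summed to between 5304.7 and 12443.5 FPKM in AΦ libraries and to between 156 and 1464 FPKM in monocyte libraries. Of 10 eosinophil markers 8 were found in the table. Prg2 and Prg3, also on that list, were not among them and could not be assessed. The 8 summed to between 98.2 and 197 FPKM in AΦ and between 35.5 and 92.5 FPKM in monocytes. Most of that sum was Siglecf (69.6 to 157 FPKM in AΦ, at most 8.99 FPKM in monocytes), which is in the AΦ list as well, and Adgre1 (median 36.3 FPKM in AΦ and 40.3 FPKM in monocytes), which codes for the macrophage antigen F4/80. The others of the 8 were low. Epx, the eosinophil peroxidase, was listed at 0 in 35 libraries and at 0.105 FPKM in 1 AΦ library, and Il5ra was listed at 0 in 31 of 36 libraries with a highest value of 0.541 FPKM. Ccr3 reached 7.64 FPKM in 1 monocyte library of 4-weeks and stayed at or below 0.285 FPKM in AΦ, while Cebpe, Alox15 and Il1rl1 reached 0.689, 1.63 and 1.05 FPKM in AΦ. In monocytes Cebpe reached 1.70 FPKM and Alox15 4.06 FPKM, and Il1rl1 had a median of 2.98 FPKM. The 8 neutrophil markers summed to 1047 FPKM in replicate 2 of PM2.5 and 343 FPKM in replicate 2 of FA among monocytes of 4-weeks, and to at most 74.2 FPKM in the other 16 monocyte libraries. Libraries numbered 2 also stood apart in red cell transcripts, whose 5 markers summed at 32-weeks to between 17.7 and 85.7 FPKM in them and to at most 19.5 FPKM in the others, and at 4-weeks to at most 1.31 FPKM in them and at least 6.91 FPKM in the others. Where a member's call was lost without the libraries numbered 2, that value stands beside the result.

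Ear2 and Ear1 were among the most abundant transcripts of AΦ, and Ear6 and Ear10 were present at a few FPKM. By mean FPKM over the 18 AΦ libraries Ear2 was in place 139 and Ear1 in place 258 of 27562 genes. Ear6 was in place 7957 and Ear10 in place 9984. The 4 members together made up between 2003.7 and 3897 FPKM of an AΦ library, and between 42.9 and 482 FPKM of a monocyte library. Ear2 held 64.6% to 77.5% of this sum in AΦ and Ear1 held 22.4% to 35.0%. In monocytes the sum was nearly all Ear2 in CD45.2 cells of 4-weeks (98.4% or more) and in CD45.1 cells of 32-weeks (96.9% or more). In CD45.2 monocytes of 32-weeks Ear1 held 5.39% to 46.0% of it.

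**Figure D1:**
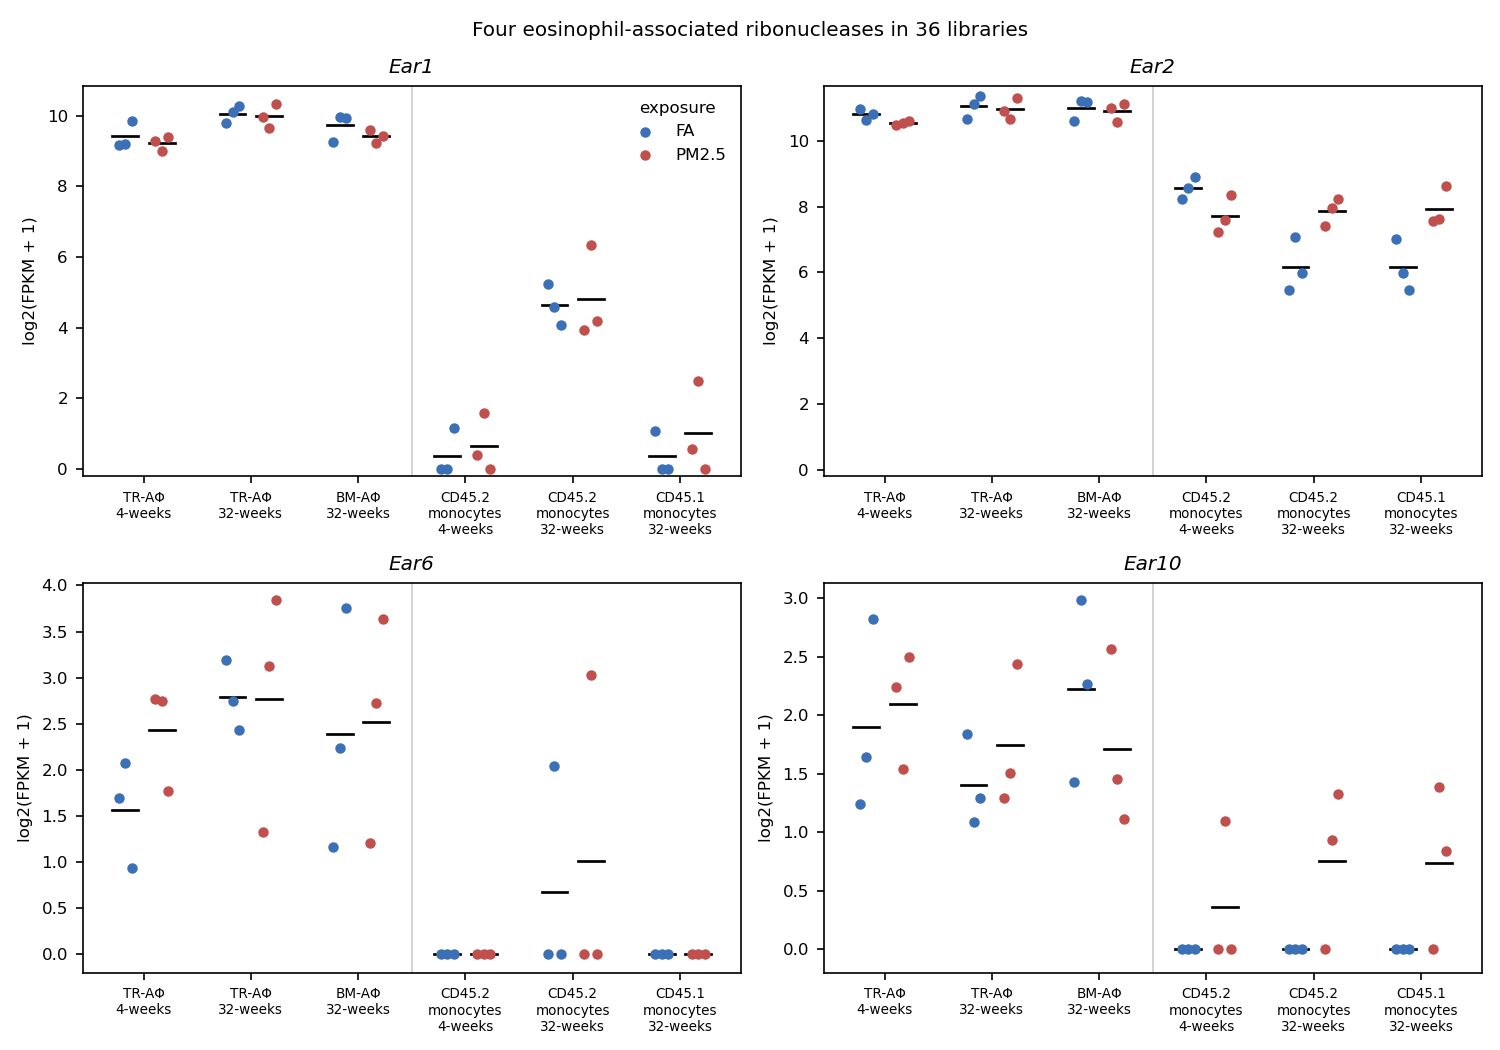
Level of each member as log2(FPKM + 1) in every library, by cell population and exposure (blue FA, red PM2.5). Points are single libraries and black bars are the means of 3 libraries on that scale; the grey line parts AΦ from monocytes, and the vertical ranges differ between panels. All 18 AΦ libraries lie above all 18 monocyte libraries for Ear1 and Ear2.

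Ear1 separated AΦ from monocytes more widely than the other members. In TR-AΦ of 4-weeks it stood at 577, 586 and 923 FPKM in FA mice and at 622, 514 and 671 FPKM in PM2.5 mice. In TR-AΦ of 32-weeks the values were 888, 1104 and 1231 FPKM in FA mice and 996, 798 and 1277 FPKM in PM2.5 mice. In BM-AΦ they were 613, 1000.3 and 981 FPKM in FA mice and 770, 602 and 689 FPKM in PM2.5 mice. In the order of their means each AΦ group overlapped the next. The order ran from 1074 ± 173 FPKM (SD, n = 3) in TR-AΦ of 32-weeks FA down to 603 ± 80.5 FPKM in TR-AΦ of 4-weeks PM2.5. Groups farther apart did not all overlap. Both TR-AΦ groups of 32-weeks lay wholly above TR-AΦ of 4-weeks PM2.5, and TR-AΦ of 32-weeks PM2.5 lay above BM-AΦ of PM2.5. Monocytes of 4-weeks stood at 0, 0 and 1.23 FPKM in FA mice and at 0.307, 2.01 and 0 FPKM in PM2.5 mice. CD45.1 monocytes of 32-weeks stood at 1.11, 0 and 0 FPKM in FA mice and at 0.475, 4.67 and 0 FPKM in PM2.5 mice. CD45.2 monocytes of 32-weeks were apart from both, with 36.6, 23.1 and 15.7 FPKM in FA mice and 14.3, 80.1 and 17.1 FPKM in PM2.5 mice. The lowest of these 6 libraries was above the highest of the other 12 monocyte libraries.

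Ear2 was the most abundant member in every group, and monocytes had a substantial level of it. In TR-AΦ of 4-weeks it stood at 1999, 1609 and 1800.0 FPKM in FA mice and at 1429, 1482 and 1558 FPKM in PM2.5 mice. In TR-AΦ of 32-weeks it stood at 1640 to 2661 FPKM in FA mice and at 1626 to 2545 FPKM in PM2.5 mice, and in BM-AΦ at 1567 to 2383 FPKM and at 1544 to 2244 FPKM. Monocytes of 4-weeks had 299, 380.2 and 481 FPKM in FA mice and 148, 191 and 329 FPKM in PM2.5 mice. At 32-weeks the CD45.1 monocytes had 128, 62.5 and 42.9 FPKM in FA mice and 187, 198 and 395 FPKM in PM2.5 mice. The CD45.2 monocytes had 42.9, 133 and 61.7 FPKM in FA mice and 168, 247 and 299 FPKM in PM2.5 mice. In the order of group means the ranges of neighbours overlapped except at 3 steps. These were between TR-AΦ of 4-weeks FA and PM2.5, between the lowest AΦ group and the highest monocyte group (387 ± 91.3 FPKM in FA mice of 4-weeks), and between monocytes of 4-weeks PM2.5 (223 ± 94.4 FPKM) and the monocytes of 32-weeks FA (79.2 ± 47.5 FPKM for CD45.2 and 77.8 ± 44.5 FPKM for CD45.1).

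Ear6 and Ear10 were low and varied widely between mice of a group. Ear6 ranged from 0.906 to 13.3 FPKM in AΦ, with a mean of 5.38 ± 3.90 FPKM (SD, n = 18). It was listed at 0 in 16 of 18 monocyte libraries, and the other 2 were CD45.2 libraries of 32-weeks with 3.10 FPKM (FA, replicate 1) and 7.15 FPKM (PM2.5, replicate 1). The BM-AΦ of FA mice show the spread, at 1.24, 3.72 and 12.5 FPKM. Ear10 ranged from 1.12 to 6.93 FPKM in AΦ, with a mean of 2.95 ± 1.81 FPKM. It was listed at 0 in 13 of 18 monocyte libraries, its highest value there was 1.61 FPKM, and all 9 monocyte libraries of FA mice were among those at 0.

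Each of the 4 members was higher in AΦ than in monocytes of the same origin and time point, over 6 libraries against 6 with both exposures averaged. Among all genes tested, 22.6% were called higher in AΦ at 4-weeks, 27.1% in CD45.1 cells of 32-weeks and 23.6% in CD45.2 cells of 32-weeks, so a call by itself sets no gene apart. The size of the difference did vary between members. For Ear1 it was 8.80 ± 0.390 (SE) on the log2 scale at 4-weeks (adjusted p = 3.28e-16), 8.88 ± 0.390 in CD45.1 cells (adjusted p = 2.72e-16) and 5.29 ± 0.390 in CD45.2 cells of 32-weeks (adjusted p = 9.93e-12). For Ear2 it was 2.53 ± 0.272 at 4-weeks (adjusted p = 1.05e-08), 3.91 ± 0.272 in CD45.1 cells (adjusted p = 2.99e-12) and 4.00 ± 0.272 in CD45.2 cells of 32-weeks (adjusted p = 1.96e-12). In FPKM the mean of Ear2 in AΦ was 5.40 times that in monocytes at 4-weeks and 13.3 times in CD45.2 cells of 32-weeks, with CD45.1 cells between them. Ear6 was higher by 1.93 to 2.45 and Ear10 by 1.20 to 1.82 on the log2 scale, all past the threshold. Both reached the minimum of 1 FPKM over the 36 libraries only through AΦ, with monocyte means of 0.569 and 0.331 FPKM. The direction of their calls was therefore largely set by that minimum. In an exact two-sided permutation test Ear1 and Ear2 reached p = 0.00216 in all 3 comparisons, the smallest value that 6 against 6 libraries allow, and Ear6 and Ear10 gave p between 0.00216 and 0.0195. Which AΦ and monocyte libraries share a mouse is not given, so the p-values of both tests leave such pairs out of account. With a pseudocount of 0.1 in place of 1 the differences of the low members were larger, at 3.98 to 5.41 for Ear6 and 3.12 to 4.30 for Ear10. The calls of Ear6 and Ear10 did not all hold within 1 exposure, and Ear6 in FA mice alone had an adjusted p of 0.0909 at 4-weeks. In PM2.5 mice alone Ear10 had adjusted p of 0.107 in CD45.1 cells and 0.106 in CD45.2 cells, and Ear6 had 0.064 in CD45.2 cells. Without the libraries numbered 2, Ear6 between CD45.2 cell types was 1.33 with an adjusted p of 0.0971.

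**Figure D2:**
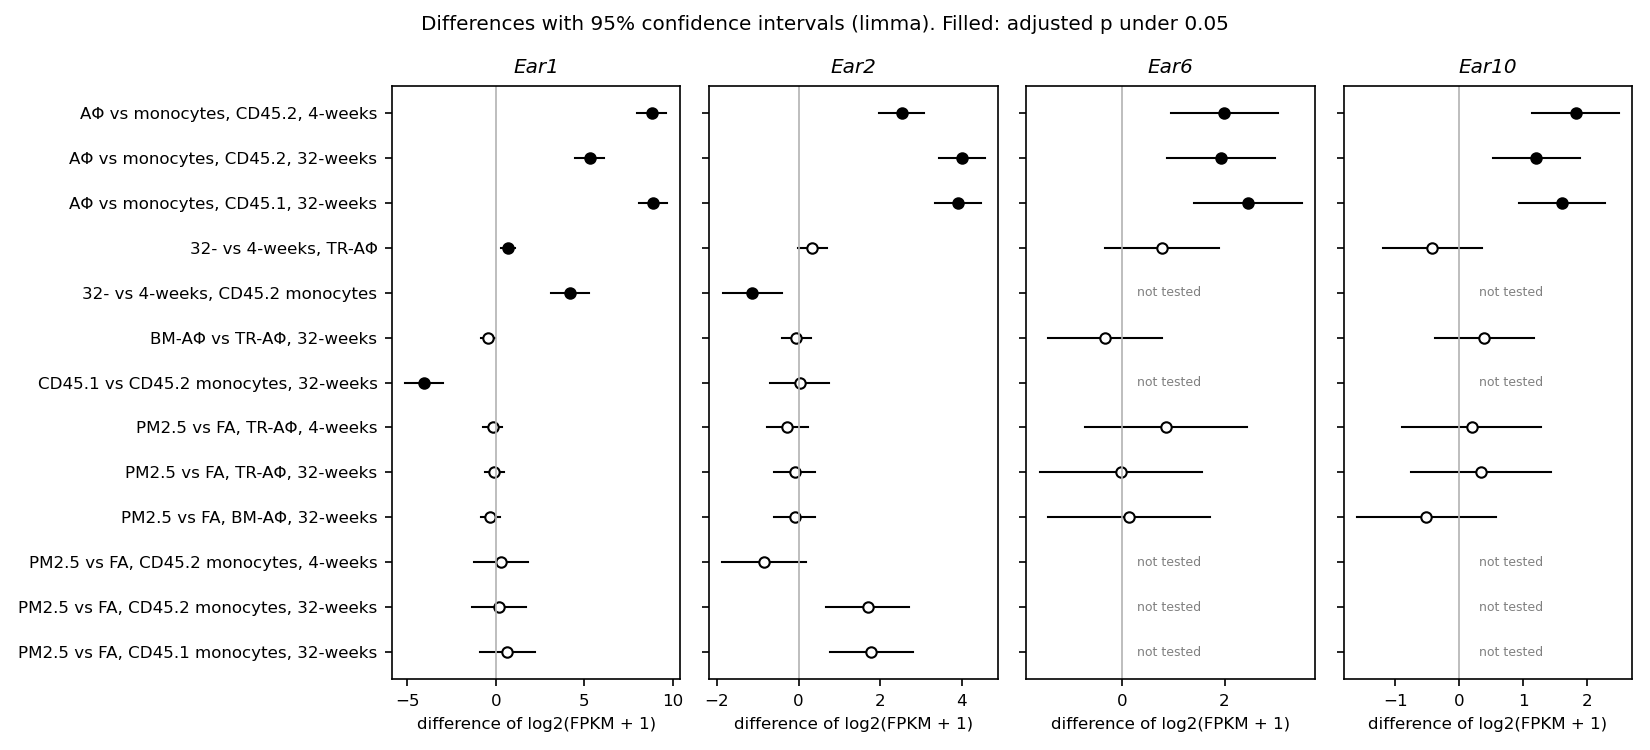
Difference of log2(FPKM + 1) for each member (columns) in 13 comparisons (rows), with the 95% confidence interval from limma. Filled points have an adjusted p under 0.05, and Ear6 and Ear10 were not tested among monocytes, where their means were under 1 FPKM. The horizontal ranges differ between panels.

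Mice of 32-weeks were in the chambers for longer and, by the study's account, were older than those of 4-weeks. The study reads differences between the time points in TR-AΦ of FA mice as most likely age-related. Age and time in the chambers cannot be told apart here. With time, Ear1 was higher at 32-weeks than at 4-weeks in CD45.2 cells of both types, by very different amounts. In TR-AΦ the mean went from 649 ± 144 FPKM to 1049 ± 189 FPKM (SD, n = 6 each), 1.62 times as much. The difference was 0.70 ± 0.176 on the log2 scale (adjusted p = 0.0345, limma). Of all genes 5.91% were called here and 2.56% were called higher. The exact permutation test gave p = 0.00649, and the ranges of the time points overlapped. This call was close to the threshold: leaving out any 1 of 7 of the 12 libraries raised the adjusted p to between 0.0649 and 0.0847, while the difference stayed between 0.61 and 0.70 on the log2 scale. Those libraries were replicates 0 and 1 of FA and 1 of PM2.5 at 4-weeks, and replicates 1 and 2 of FA and 0 and 2 of PM2.5 at 32-weeks. The call was also lost with quantile normalization (adjusted p = 0.119), without the libraries numbered 2 (adjusted p = 0.106) and with only the TR-AΦ libraries in the fit (adjusted p = 0.0675). Ear2 (0.34 ± 0.168, adjusted p = 0.256), Ear6 (0.78, adjusted p = 0.415) and Ear10 (-0.42, adjusted p = 0.528) did not pass in TR-AΦ.

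In CD45.2 monocytes Ear1 was higher at 32-weeks by 4.20 ± 0.506 on the log2 scale (adjusted p = 1.77e-04), where 7.06% of genes were called higher. The 6 libraries of 32-weeks (14.3 to 80.1 FPKM) did not overlap the 6 of 4-weeks (0 to 2.01 FPKM), which was so in this direction for 4.06% of genes. With a pseudocount of 0.1 the difference was 6.29. Within FA mice the difference was 4.24 (adjusted p = 0.0038) and within PM2.5 mice it was 4.16 (adjusted p = 0.00944). Ear2 moved the other way, with a mean of 305 ± 122 FPKM at 4-weeks and 159 ± 101 FPKM at 32-weeks. The difference was -1.13 ± 0.337 on the log2 scale (adjusted p = 0.035), where 7.83% of genes were called lower. It was -2.41 within FA mice (adjusted p = 0.00805) and 0.14 within PM2.5 mice (adjusted p = 0.953). With quantile normalization the adjusted p was 0.127, and without the libraries numbered 2 it was 0.17. Without any 1 of 8 libraries it was between 0.0548 and 0.0946, and these were replicates 1 and 2 of FA and of PM2.5 at 4-weeks, and replicates 0 and 2 of FA and 0 and 1 of PM2.5 at 32-weeks. Both libraries of 4-weeks with high neutrophil markers are among them, with differences of -0.97 and -1.05 without the PM2.5 and the FA library. The part of other cell types in this result was not tested beyond that.

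The difference between AΦ and monocytes in CD45.2 cells differed between the time points for Ear1 and Ear2, as tested directly with the interaction of cell type and time. For Ear1 the AΦ minus monocyte difference was smaller at 32-weeks, by a change of -3.50 ± 0.551 on the log2 scale (adjusted p = 1.71e-04). For Ear2 it was larger by 1.47 ± 0.384 (adjusted p = 0.0157). Of all genes 4.35% were called lower and 3.53% higher in this test. Ear6 (-0.07, adjusted p = 0.981) and Ear10 (-0.62, adjusted p = 0.507) did not pass. The Ear2 call was lost with quantile normalization (adjusted p = 0.104) and without the libraries numbered 2 (0.172), and the call of Ear1 was not lost in any alternative run. In FA mice alone the AΦ minus monocyte difference of Ear2 was 2.24 at 4-weeks and 4.90 at 32-weeks. In PM2.5 mice alone it was 2.82 and 3.10. The interaction was not tested within 1 exposure.

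Origin of the cells went with Ear1 in monocytes. CD45.1 monocytes of 32-weeks had 1.04 ± 1.83 FPKM of Ear1 and CD45.2 monocytes had 31.2 ± 25.3 FPKM (SD, n = 6 each), a difference of -4.03 ± 0.506 on the log2 scale (adjusted p = 9.19e-04). Here 0.591% of genes were called lower, and for 0.980% the CD45.1 libraries all lay below the CD45.2 libraries, as they did for Ear1. Within PM2.5 mice alone the difference was -3.80 and the adjusted p was 0.063. Over both exposures and without the libraries numbered 2, the difference was -3.99 and the adjusted p was 0.0628. Ear2 stood at 169 ± 127 FPKM in CD45.1 and 159 ± 101 FPKM in CD45.2 monocytes, with a difference of 0.03 (95% interval -0.69 to 0.75, adjusted p = 1). Between BM-AΦ and TR-AΦ of 32-weeks no member passed the threshold, in a comparison in which 0.316% of genes were called. Ear1 was at 776 ± 177 FPKM in BM-AΦ and 1049 ± 189 FPKM in TR-AΦ, a difference of -0.44 with a 95% interval of -0.82 to -0.07 (adjusted p = 0.528). Ear2 was at 2021 ± 378 FPKM and 2107 ± 446 FPKM, with an interval of the difference from -0.42 to 0.30. Cells of both origins are not from separate animals, and the tests between origins took their libraries as independent.

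The Ear1 of CD45.2 monocytes at 32-weeks stood beside transcripts of other macrophages. Set against the mean of TR-AΦ at 32-weeks, Ear1 was at 1.37% to 7.64% in these 6 libraries, and the median of the 13 AΦ markers was at 2.60% to 18.7%. In monocytes of 4-weeks, against TR-AΦ of 4-weeks, Ear1 was at 0 to 0.310% and the marker median at 0.596% to 1.43%. In CD45.1 monocytes, against BM-AΦ, Ear1 was at 0 to 0.602% and the marker median at 0.630% to 5.35%. The 13 markers did not all go the way of their median. Fabp4 was at 85.6% to 167% in monocytes of 4-weeks and at 4.13% to 39.6% in CD45.2 monocytes of 32-weeks. Pparg was at 23.7% to 88.2% in the former and at 3.31% to 19.1% in the latter. The library with the most Ear1 (80.1 FPKM, PM2.5 replicate 1) was also the one with the highest marker median. Without it Ear1 in CD45.2 monocytes was between 14.3 and 36.6 FPKM, and the comparisons of Ear1 with time and with origin kept adjusted p of at most 8.24e-04 and 0.00482 whichever library was left out. Markers of interstitial macrophages, among them the complement genes C1qa, C1qb and C1qc and the scavenger receptor Cd163, were high as well. These 6 genes summed to between 858 and 3290.5 FPKM in CD45.2 monocytes of 32-weeks, and to between 308 and 1022 FPKM in CD45.1 monocytes and 2.85 and 406 FPKM in monocytes of 4-weeks. Cd163 was at 29.3 to 130.3 FPKM in the first and at most 5.45 FPKM in the others. The part of these transcripts in the level of Ear1 was not tested.

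PM2.5 against FA gave no call for any member in any population. In AΦ 0.00790% of genes were called at 4-weeks in TR-AΦ, 0% at 32-weeks in TR-AΦ and 0.0158% in BM-AΦ. Among monocytes 0.00778% were called at 4-weeks, and 0% in both origins at 32-weeks, where 609 genes in CD45.1 and 547 genes in CD45.2 monocytes had an unadjusted p under 0.05 (limma). With 3 against 3 libraries the exact permutation test cannot go below 0.1. In AΦ the 95% interval of Ear1 on the log2 scale ran from -0.71 to 0.35 in TR-AΦ of 4-weeks, from -0.62 to 0.45 in TR-AΦ of 32-weeks and from -0.84 to 0.23 in BM-AΦ. For Ear2 the intervals were -0.78 to 0.24, -0.61 to 0.41 and -0.61 to 0.41. The Ear2 libraries of TR-AΦ at 4-weeks did not overlap, with 1490 ± 64.7 FPKM in PM2.5 and 1803 ± 195 FPKM in FA mice, which was so in this direction for 3.51% of genes. Neither the change of exposure effect with time in TR-AΦ nor its change with origin in AΦ passed the threshold for any member, and the estimates for Ear1 and Ear2 lay between -0.22 and 0.17 on the log2 scale.

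In monocytes of 32-weeks only Ear2 among the members had FA and PM2.5 libraries that did not overlap, in both origins and without a call. In CD45.1 monocytes it was 77.8 ± 44.5 FPKM in FA and 260 ± 117 FPKM in PM2.5 mice (SD, n = 3 each), 3.34 times as much. In CD45.2 monocytes it was 79.2 ± 47.5 FPKM in FA and 238 ± 65.9 FPKM in PM2.5 mice, 3.005 times as much. In both the PM2.5 libraries all lay above the FA libraries. That was so for 6.49% of genes in CD45.1 and 3.81% in CD45.2 monocytes, so such a gap by itself sets no gene apart. The exact permutation p was 0.1, its smallest value. The difference was 1.79 on the log2 scale (95% interval 0.77 to 2.81) in CD45.1 monocytes, with an unadjusted p of 0.00209 and an adjusted p of 0.946 (limma). It was 1.70 (95% interval 0.68 to 2.72) in CD45.2 monocytes, with an unadjusted p of 0.00305 and an adjusted p of 1. By p Ear2 was in place 15 and in place 31 of 12856 genes, and neither difference passed. In monocytes of 4-weeks Ear2 lay the other way, at 387 ± 91.3 FPKM in FA and 223 ± 94.4 FPKM in PM2.5 mice, with overlapping ranges and a difference of -0.85 (95% interval -1.87 to 0.17, adjusted p = 1). Ear1 gave 0.27 at 4-weeks, 0.66 in CD45.1 and 0.19 in CD45.2 monocytes of 32-weeks, with adjusted p of 1 in each.

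A pair of further tests was chosen after these values were seen. Over both origins at 32-weeks Ear2 was at 249 ± 85.9 FPKM in PM2.5 and 78.5 ± 41.2 FPKM in FA mice (SD, n = 6 each), and the lowest PM2.5 library (168 FPKM) was above the highest FA library (133 FPKM). Such a gap in this direction was found for 0.327% of genes. The difference was 1.74 ± 0.337 on the log2 scale (95% interval 1.02 to 2.46). In the fit over all genes Ear2 had an unadjusted p of 1.33e-04, in place 2 of 12856 genes, and an adjusted p of 0.342, with a range of 0.0569 to 1 over the alternatives. No gene was called there, and 1144 had an unadjusted p under 0.05. The 6 libraries of an exposure come from 3 mice by the methods, so p-values over them are too small, and an exact permutation test over 3 against 3 mice cannot go below 0.1. The change of the exposure effect from 4-weeks to 32-weeks in CD45.2 monocytes was 2.54 ± 0.674 for Ear2 (unadjusted p = 0.00198, adjusted p = 1) and -0.08 for Ear1, where 0.00778% of genes were called.

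**Figure D3:**
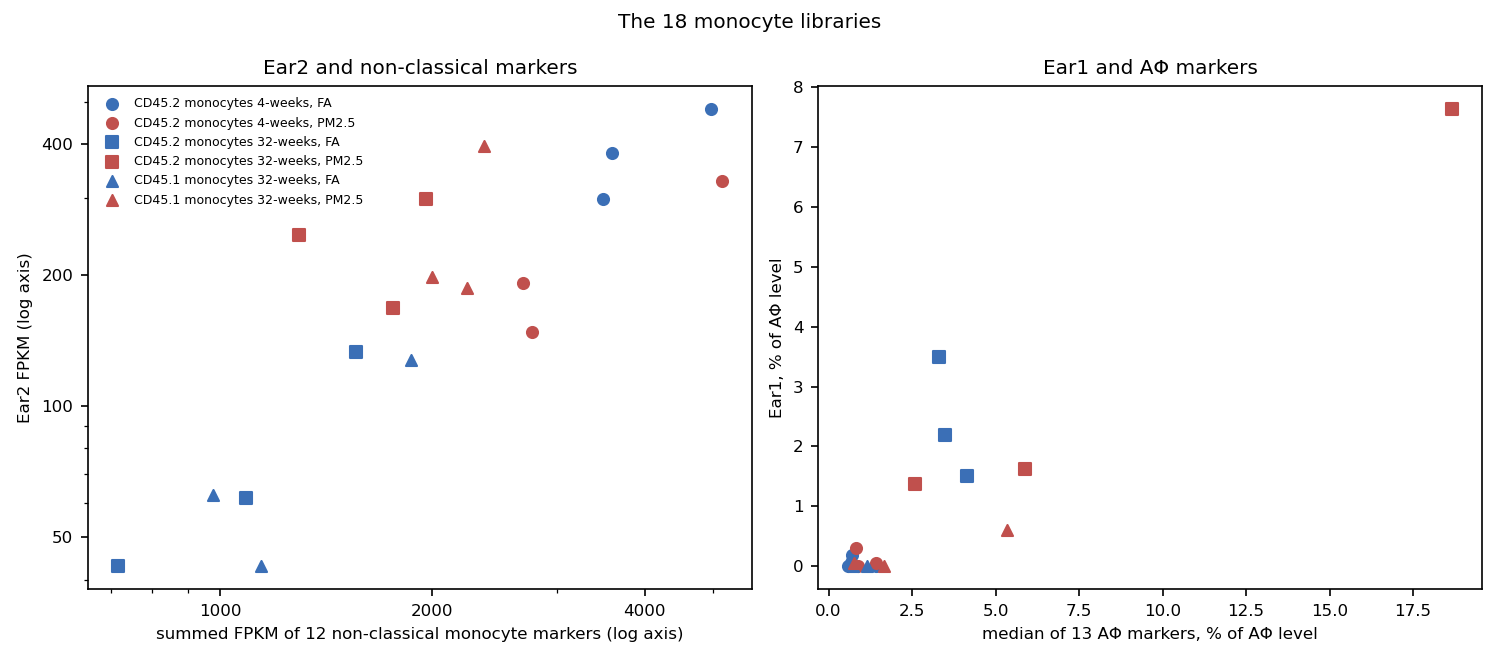
The 18 monocyte libraries, with blue for FA and red for PM2.5, circles for CD45.2 cells of 4-weeks, squares for CD45.2 and triangles for CD45.1 cells of 32-weeks. Left, Ear2 in FPKM against the summed FPKM of 12 non-classical markers, both on log axes. Right, Ear1 against the median of 13 AΦ markers, each as a percentage of the mean level in AΦ of the same origin and time point, where the square at the far upper right is PM2.5 replicate 1 (7.64% and 18.7%).

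Ear2 followed the markers of non-classical monocytes, the patrolling subset that expresses Cx3cr1, Nr4a1, Ace and Treml4 and that arises from classical monocytes. Their 12 markers summed to between 3493 and 4962 FPKM in FA mice of 4-weeks and between 2692 and 5140 FPKM in PM2.5 mice of 4-weeks. At 32-weeks the sums were 977 to 1867 FPKM in FA and 1996 to 2370 FPKM in PM2.5 mice for CD45.1 monocytes, and 717 to 1559 FPKM in FA and 1296 to 1961 FPKM in PM2.5 mice for CD45.2 monocytes. In CD45.1 monocytes these sums did not overlap between FA and PM2.5, and in CD45.2 monocytes they did. Over the 18 monocyte libraries the log2 level of Ear2 and of the sum were correlated with r = 0.841 (Pearson) and rho = 0.812 (Spearman). Within time points r was 0.831 over the 6 libraries of 4-weeks and 0.845 over the 12 of 32-weeks, and it was 0.765 at 32-weeks without the 2 libraries farthest from the median sum. Without the 2 farthest libraries r at 4-weeks was 0.936. With the markers of classical monocytes r was -0.131 over the 18 libraries, -0.763 at 4-weeks and -0.0968 at 32-weeks, and the value at 4-weeks turned to 0.867 without 2 libraries, so that a correlation over 6 libraries was not stable here. These values describe libraries that share group and depth. The part of the subsets in the differences of Ear2 by time and exposure was not tested.

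Each member had its own nearest genes, found as the 5 with the highest Pearson r of log2 values. Over all 36 libraries Ear1 was closest to Sh3bgrl2 (r = 0.991), Atp6v0d2, a subunit of the proton pump of lysosomes (0.988), Adcy3, Slc12a7 and the keratin Krt79 (0.983). Ear2 was closest to Sept9 (0.977), Sh2d1b1, Pik3ap1, Iqgap1 and Plekhg1 (0.967). Ear6 (Tanc1, 0.880) and Ear10 (Ptpn7, 0.849) had looser neighbours. Over 36 libraries these values span both cell types, which themselves differ widely in Ear1 and Ear2. Atp6v0d2 and Krt79 are also in the list of AΦ markers. Within the 18 monocyte libraries Ear1 was closest to Cd4 (0.952), Rnase4 (0.951), Sh3bgrl2 (0.943), Krt79 (0.943) and Bmpr1a (0.937). These values span the gap in Ear1 between CD45.2 monocytes of 32-weeks (14.3 to 80.1 FPKM) and the other monocytes (at most 4.67 FPKM). In monocytes Ear2 was closest to Lair1 (0.946), Cd180 (0.944), Ptprj (0.938), Megf9 (0.936) and the fractalkine receptor Cx3cr1 (0.926). Cx3cr1 is also in the list of non-classical markers above. Within the 18 AΦ libraries the closest genes were Ccny (0.921) for Ear1, Pdk1, a kinase that holds back pyruvate dehydrogenase, (0.897) for Ear2, Paip2b (0.841) for Ear6 and Haus1 (0.754) for Ear10. By Spearman rho, 4 of the 5 AΦ neighbours of Ear1 and 2 of 5 for Ear2 were the same, and in monocytes 0 of 5 for Ear1 and 2 of 5 for Ear2. Ear1 and Ear2 themselves had r = 0.767 over AΦ and r = -0.211 over monocytes.

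Of 27 other genes listed for the RNase A family and its inhibitor, 12 were in the table, and 7 were tested between cell types. At 4-weeks 3 of 7 were higher in AΦ and 1 was lower, where 22.6% of all genes were called higher and 25.5% lower, with a median difference of 0.86 on the log2 scale against -0.02 over all genes. In CD45.1 cells of 32-weeks 4 of 7 were higher, against 27.1% of all genes (median 1.22 against 0.03). In CD45.2 cells 3 of 7 were higher, against 23.6% of all genes (median 0.48 against 0). Rnh1, the cytosolic inhibitor that binds ribonucleases of this family, was higher in AΦ in all 3, by 0.86, 1.22 and 1.10, with 76.4 to 168 FPKM in AΦ and 47.5 to 83.8 FPKM in monocytes. Ang, angiogenin, was higher in AΦ at 4-weeks (1.01, adjusted p = 0.00129) and in CD45.1 cells of 32-weeks (1.26, adjusted p = 1.11e-04). Ear-ps9, which shares stretches with Ear1, was higher in AΦ of CD45.2 cells at 32-weeks (2.14, adjusted p = 2.46e-04) and was listed at 0 in all 18 monocyte libraries. It reached the minimum of 1 FPKM only through AΦ, so it could not have come out lower there. Rnase2b (mean 1.99 FPKM in AΦ and 0.614 FPKM in monocytes) also reached the minimum only through AΦ. Both are among the 3 of 7 called higher in CD45.2 cells. The TR-AΦ values of Ear-ps9 at 32-weeks reached 9.04 FPKM.

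With both exposures averaged, Rnase4 and Rnase6 moved in opposite ways with time in CD45.2 monocytes, as Ear1 and Ear2 did. The fall of Ear2 was seen in FA mice (-2.41) and not in PM2.5 mice (0.14). Rnase4, a secreted ribonuclease that cuts after uridine, stood at 11.8 to 15.6 FPKM in monocytes of 4-weeks, 11.7 to 20.7 FPKM in CD45.1 and 31.2 to 69.3 FPKM in CD45.2 monocytes of 32-weeks. In CD45.2 monocytes Rnase4 rose with time by 1.61 ± 0.185 on the log2 scale (adjusted p = 1.38e-04), where 7.06% of genes were called higher. CD45.1 minus CD45.2 monocytes gave -1.42 (adjusted p = 0.00124), where 0.591% were called lower. Rnase6, which codes for an antimicrobial ribonuclease, was higher in monocytes than in AΦ at 4-weeks (AΦ minus monocytes -1.54, adjusted p = 3.23e-04). In CD45.2 monocytes Rnase6 fell with time (-1.59 ± 0.408, adjusted p = 0.017), where 7.83% of genes were called lower. Its mean went from 92.3 to 19.4 FPKM in FA mice and from 74.4 to 48.7 FPKM in PM2.5 mice. The change of its exposure effect with time was 1.77 (unadjusted p = 0.047, limma) and did not pass. Its cell type by time change was 2.02 (adjusted p = 0.00631), where 3.53% of genes were called higher. At 32-weeks Rnase6 was at 24.3 ± 8.23 FPKM in FA and 73.8 ± 37.4 FPKM in PM2.5 CD45.1 monocytes (difference 1.503, adjusted p = 0.946), and at 19.4 ± 16.5 FPKM and 48.7 ± 29.1 FPKM in CD45.2 monocytes (difference 1.499, adjusted p = 1). Rnase2a, a ribonuclease of the eosinophil group, varied from 0 to 84.8 FPKM among AΦ, and its highest value was in 1 BM-AΦ library of FA mice. It passed in CD45.1 cells only among the cell type comparisons (2.90, adjusted p = 0.00576), and a change of the cell type difference with origin was not tested. Between origins Rnase2a gave 2.23 for BM-AΦ minus TR-AΦ (adjusted p = 0.634). For CD45.1 minus CD45.2 monocytes it gave -0.33 (adjusted p = 0.937). None of the family list passed for PM2.5 against FA, for BM-AΦ against TR-AΦ or for time in TR-AΦ.

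**Figure D4:**
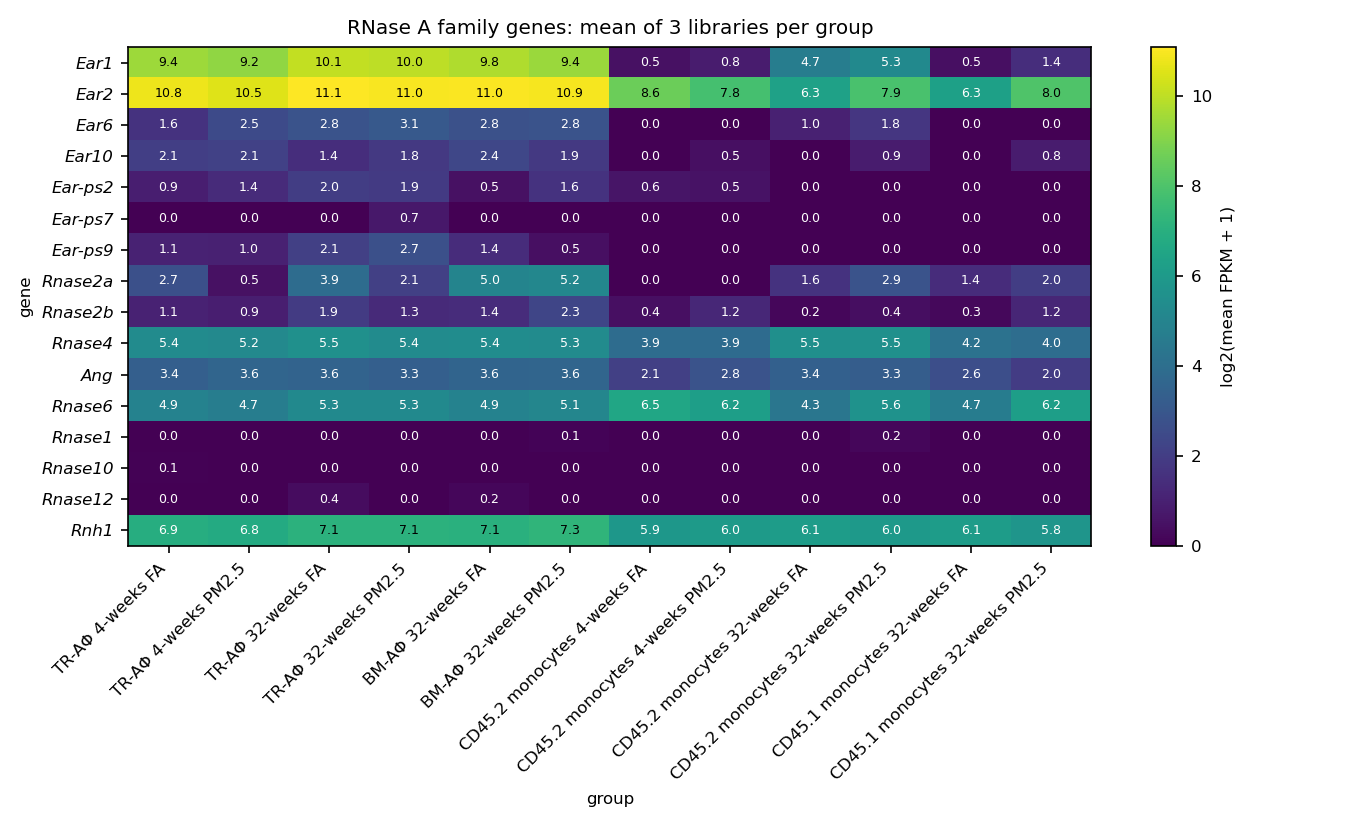
Level of each member and of the other 12 family genes in the table (rows) in the 12 groups (columns), as log2 of the mean FPKM of 3 libraries plus 1, by colour and printed in each cell. Ear2 and Ear1 are the brightest rows in AΦ, and Ear2 is the brightest in monocytes.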

How the data were processed

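Messenger RNA of sorted AΦ and monocytes from 36 samples was made into libraries with a SMART-Seq stranded kit. As deposited by the authors, values are FPKM per gene, from reads trimmed with TrimGalore 0.4.2, aligned to mm10 with STAR 2.5.1 and quantified with Cufflinks 2.2.1; the submitters' notes also name Cuffdiff. The handling of reads that fit several genes is not given in the sources used here. Here, values were taken to log2(FPKM + 1) and fitted with limma 3.58.1 (R 4.3.3) for the genes whose mean reached 1 FPKM (12665 in AΦ, 12856 in monocytes, 13307 in both), 1 mean per group, trended variance and Benjamini-Hochberg adjustment in each comparison, and tested on simulated data. All adjusted p are from limma. Ear6 and Ear10 did not reach the minimum in monocytes and were not tested there. Single values were tested with exact two-sided permutation tests (scipy 1.17.1). The 24 symbols that a spreadsheet had turned into numbers were renamed by gene ID. Named were the members, the family list, marker lists and, per member, the 5 genes with the highest Pearson r. Members and lists were chosen with earlier results of these data known. Alternatives were another pseudocount (0.1), no minimum, quantile normalization, a replicate block, only the groups compared, 1 exposure, and libraries left out. Of these, 2 comparisons were added after seeing the data.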

Additional observations from a re-analysis of the deposited data

Results flagged for a closer look

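The change of the AΦ minus monocyte difference from 4-weeks to 32-weeks in CD45.2 cells passed the test of the interaction for Ear1 and Ear2, in opposite directions. For Ear1 it was -3.505 on the log2 scale (SE 0.551, adjusted p = 1.71e-04, limma), and all 6 CD45.2 monocyte libraries of 32-weeks lay above the 6 of 4-weeks. For Ear2 it was 1.473 (SE 0.384, adjusted p = 0.0157), where the monocyte libraries of the time points overlapped (42.9 to 299 FPKM at 32-weeks and 148 to 481 FPKM at 4-weeks). By exposure the Ear2 difference went from 2.24 to 4.90 in FA mice and from 2.82 to 3.10 in PM2.5 mice. The levels of AΦ and interstitial macrophage markers beside Ear1, and of non-classical markers beside Ear2, are given with those results. The AΦ markers did not all go the way of Ear1. The part of these transcripts was not tested.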

How the results depend on the processing

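Of 58 member results, 18 passed the threshold, and 10 of these did so in the same direction under every alternative run. The 18 include the AΦ against monocyte results of all members, where 22.6% to 27.1% of all genes were called higher. For Ear6 and Ear10 the direction of these was largely set by the minimum level. Ear10 at 4-weeks and Ear6 in CD45.1 cells are of this kind and are among the 10. Of the 40 that did not pass, 0 passed under any alternative, and 22 changed sign in at least 1. The cause of the changes below was not tested. All values are differences of log2(FPKM + 1).

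Quantile normalization gave 0.64 for Ear1 with time in TR-AΦ (adjusted p = 0.119), -0.90 for Ear2 with time in monocytes (0.127) and 1.16 for Ear2 in cell type by time (0.104), all no longer called. Without a minimum level Ear2 with time in monocytes kept -1.134 (adjusted p = 0.0537). With only the groups compared Ear1 with time in TR-AΦ kept 0.6972 (adjusted p = 0.0675). Without the libraries numbered 2, calls were lost for Ear6 between CD45.2 cell types (1.33, adjusted p = 0.0971), Ear2 in cell type by time (1.12, 0.172), Ear1 with time in TR-AΦ (0.71, 0.106), Ear2 with time in monocytes (-0.93, 0.17) and Ear1 between monocytes of both origins (-3.99, 0.0628). In FA mice alone they were lost for Ear6 between cell types at 4-weeks (1.57) and Ear1 with time in TR-AΦ (0.65, adjusted p = 0.305). In PM2.5 mice alone they were lost for Ear10 between CD45.1 cell types (0.97) and CD45.2 cell types (0.99), Ear6 between CD45.2 cell types (1.76), Ear1 with time in TR-AΦ (0.75, adjusted p = 0.173) and Ear1 between monocytes of both origins (-3.80), and Ear2 with time in monocytes turned to 0.14.

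Among results that did not pass, quantile normalization turned Ear6 in cell type by time to 0.032, Ear2 between BM-AΦ and TR-AΦ to 0.003856, Ear1 in exposure by time in TR-AΦ to -0.0008625, Ear2 in exposure by origin to 0.029, Ear2 between CD45.1 and CD45.2 monocytes to -0.10 and Ear1 in exposure by time in CD45.2 monocytes to 0.064. Without libraries numbered 2, Ear10 by exposure in TR-AΦ of 32-weeks became -0.063, Ear2 between BM-AΦ and TR-AΦ 0.009327, and exposure by time in TR-AΦ -0.11 for Ear1 and -0.515 for Ear10. In PM2.5 mice Ear10 between BM-AΦ and TR-AΦ became -0.036, and in FA mice Ear2 between CD45.1 and CD45.2 monocytes became -0.013.

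With 1 library left out at a time, the results whose call or sign changed ran from the lowest to the highest value as follows. For Ear1 the ranges were time in TR-AΦ 0.61 to 0.81, exposure in CD45.1 monocytes -0.0799 to 1.17, exposure in CD45.2 monocytes of 32-weeks -0.57 to 0.63 and exposure in TR-AΦ of 32-weeks -0.26 to 0.083. Further ranges for Ear1 were exposure in TR-AΦ of 4-weeks -0.30 to 0.042, exposure in monocytes of 4-weeks -0.19 to 0.66, exposure by time in CD45.2 monocytes -0.84 to 0.38 and exposure by time in TR-AΦ -0.12 to 0.26. For Ear2 the ranges were time in CD45.2 monocytes -1.36 to -0.96, BM-AΦ against TR-AΦ -0.15 to 0.043, CD45.1 against CD45.2 monocytes -0.18 to 0.26 and exposure in BM-AΦ -0.29 to 0.0604. Further ranges for Ear2 were exposure in TR-AΦ of 32-weeks -0.29 to 0.062, exposure by origin in AΦ -0.20 to 0.19 and exposure by time in TR-AΦ -0.016 to 0.33. For Ear6 the ranges were BM-AΦ against TR-AΦ -0.68 to 0.0028, exposure in BM-AΦ -0.47 to 0.82, exposure in TR-AΦ of 32-weeks -0.56 to 0.69 and cell type by time -0.33 to 0.44. Further ranges for Ear6 were exposure by origin in AΦ -0.56 to 0.85. For Ear10 the ranges were exposure in TR-AΦ of 32-weeks -0.0075 to 0.57, exposure in TR-AΦ of 4-weeks -0.14 to 0.65 and exposure by time in TR-AΦ -0.31 to 0.48.

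The sources used here do not say that a replicate number marks a mouse, and the numbers were not taken as pairs. Deviations from the group means of 102 same-numbered library pairs had r from -0.0868 to 0.209, and none of 34 pairs of groups had every r over 0.1. For 51 of the 102, out of 3 candidates each, the best match had the same number, and red cell transcripts set the libraries numbered 2 apart, so a shared batch or mouse behind the numbers was not settled. A fit with the replicate block changed no member's call (Ear1 with time in TR-AΦ, adjusted p = 0.0207). It raised the genes called with time in TR-AΦ from 748 to 1322, between BM-AΦ and TR-AΦ from 40 to 93, between monocytes of both origins from 86 to 132 and in cell type by time from 1049 to 1648. Over all alternatives the genes called ranged from 99 to 1322 with time in TR-AΦ, from 311 to 2769 with time in monocytes (1914 as reported), from 2 to 93 between BM-AΦ and TR-AΦ and from 16 to 152 between monocytes of both origins. They reached 11 at most for PM2.5 against FA within a population. With no counts analysed here, what depth limits for the low members Ear6 and Ear10 is unknown.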
